A study of Mus musculus with 12 samples.

Results

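Respiratory chain assembly factors are proteins that help to build the complexes of oxidative phosphorylation without remaining in them. The genes described here are 38 such factors, taken by gene name: *Ndufaf1* to *Ndufaf8* and 30 further factors. Of the 38, 13 act on complex I, 5 on complex III, 17 on complex IV and 3 on ATP synthase (complex V). The list was made with earlier results of these data known. All 38 were listed among the 55367 gene symbols of the files, and all 38 were among the 14428 genes tested.

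The samples, 12 in all, were made of myofibers isolated from the extensor digitorum longus (EDL), a fast hindlimb muscle, of C57BL/6J mice, with no allele or treatment named for any group. The Young group held 4 samples from mice aged 3–4 months, and the mice of both aged groups were 26–28 months old. The paper names the Jackson Laboratory for its C57BL/6J mice and a geriatrics center in Japan for aged ones. Age and the source of the mice therefore may not be separable in comparisons with Young. Aged fibers had been stained with Fluo-4, a fluorescent calcium indicator, and separated under a fluorescence stereomicroscope into 4 Fluo-4 normal and 4 Fluo-4 abnormal samples, the latter with an aberrant staining that the study describes in aged males. The sources do not give the number of fibers or mice behind a sample, so p-values measure the spread between samples, which may be partly technical.

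Each respiratory complex is assembled stepwise at the inner mitochondrial membrane from subunits made in the cytosol and, except for complex II, subunits made inside the mitochondrion. Assembly factors stabilise intermediates, insert heme, copper and iron-sulfur clusters, modify subunits and tune translation of the mitochondrial genome. They are needed in small amounts relative to the subunits, and the loss of many of them causes an isolated deficiency of 1 complex, often with disease of muscle, heart or brain.

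The levels are given as TPM, a share of the library that is corrected for transcript length and sums to 1000000 in each sample, and changes are differences on the log2(TPM + 1) scale with their standard error (SE). A gene was called when its limma p-value, adjusted by the Benjamini-Hochberg method over all genes tested, was under 0.05. In these bulk samples, a smaller share of a transcript in each fiber and fewer fibers that carry it cannot be told apart. The 6 myofiber markers summed to between 122113 and 160273 TPM, and markers of satellite, endothelial, fibroblast, immune, Schwann and smooth muscle cells each summed to at most 80.03 TPM. The erythroid list reached 297 TPM in 1 Fluo-4 normal sample, and *Adipoq*, *Plin1* and *Cidec*, the adipocyte list, were at 0 TPM in all samples. *Myh4*, the myosin of the fastest fibers, made up 99.4% ± 0.32 of the TPM of 4 adult myosins in Fluo-4 abnormal samples (SD, n = 4), against 96.3% ± 2.36 in Fluo-4 normal samples (exact permutation p = 0.0571, two-sided) and 97.8% ± 0.801 in Young samples (exact permutation p = 0.0286, two-sided, the smallest p that 4 against 4 samples allow). Mitochondrially-encoded genes held 5.82% ± 1.04, 9.69% ± 0.973 and 7.77% ± 0.301 of the TPM of the Fluo-4 abnormal, Fluo-4 normal and Young samples (SD, n = 4, exact permutation p = 0.0286, two-sided, for each pair of groups). The 5 immune markers summed to 0.718 to 1.47 TPM in Young, 5.09 to 15.1 TPM in Fluo-4 normal and 7.39 to 11.3 TPM in Fluo-4 abnormal samples. Most of the sums of the aged groups came from 1 gene, *Lyz2*, at 0.269 to 1.04, 4.58 to 13.8 and 6.69 to 10.5 TPM in that order. The medians of *Cd68* were 0.34, 0.24 and 0.47 TPM, and *Ptprc*, *Adgre1* and *C1qa* did not exceed 0.68 TPM. The part of these shifts in the results below was not tested. Values with the *Myh4* share in the model are given for some results.

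The Fluo-4 abnormal fibers were first compared with the Fluo-4 normal fibers of aged mice, to ask which assembly factors differed with the staining. In this comparison, 3 of the 38 factors were called lower in the Fluo-4 abnormal fibers, 0 were called higher and 35 did not pass the test. The 3 were *Ndufaf3* and *Ndufaf6*, factors of complex I, and *Coa6*, a factor of complex IV. Of all 14428 genes, 1.99% were called lower and 7.36% higher. The 38 factors had a median change of -0.09, with 27 of 38 below 0, whereas the median of all genes was 0.10, with 31 of 38 below it. Relative to that median the factors lay at -0.19. At an unadjusted p under 0.05, 6 factors were lower and 2 higher, against 3693 of all 14428 genes in either direction.

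The size of the change depended on how the libraries were scaled. After rescaling by TMM-type factors, the median of all genes was 0.00, the median of the assembly factors was -0.31, and 8 factors were called lower and 0 higher. Among all genes the same rescaling turned 1062 higher and 287 lower calls into 306 higher (2.12%) and 542 lower ones (3.76%). The position of the factors below the median of all genes was -0.19 on the deposited scale and -0.31 after rescaling. On the deposited scale it also depended on other settings. It was -0.29 with 0.1 in place of 1 added to the TPM, and -0.29 with a filter of 5 TPM.

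Samples of the same number in the aged groups deviated together, and with the replicate number as a block 8 factors were called lower and 1 higher, against 2.82% and 13.0% of all genes in that fit. The 8 were *Ndufaf1*, *Ndufaf3*, *Ndufaf6*, *Uqcc1*, *Sco2*, *Coa6*, *Cox20* and *Atpaf1*, and the 1 called higher was *Surf1*. When the *Myh4* share was added to the model, 0 factors were called lower, against 108 of all 14428 genes. *Ndufaf3*, *Ndufaf6* and *Coa6* had changes of -0.61, -0.57 and -0.37 in that fit. The share was higher on average in Fluo-4 abnormal samples, so its part and that of the staining cannot be told apart. In the fit with that share, 6 factors were lower at an unadjusted p under 0.05. The median change of the factors was -0.09 there, against 0.17 for all genes. With only the Fluo-4 abnormal and normal samples in the fit, 0 factors were called lower, against 145 of all genes. There, 6 factors were lower at an unadjusted p under 0.05. The share of all genes at that unadjusted level was not taken in either fit, so these counts have no background.

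**Figure D1:**
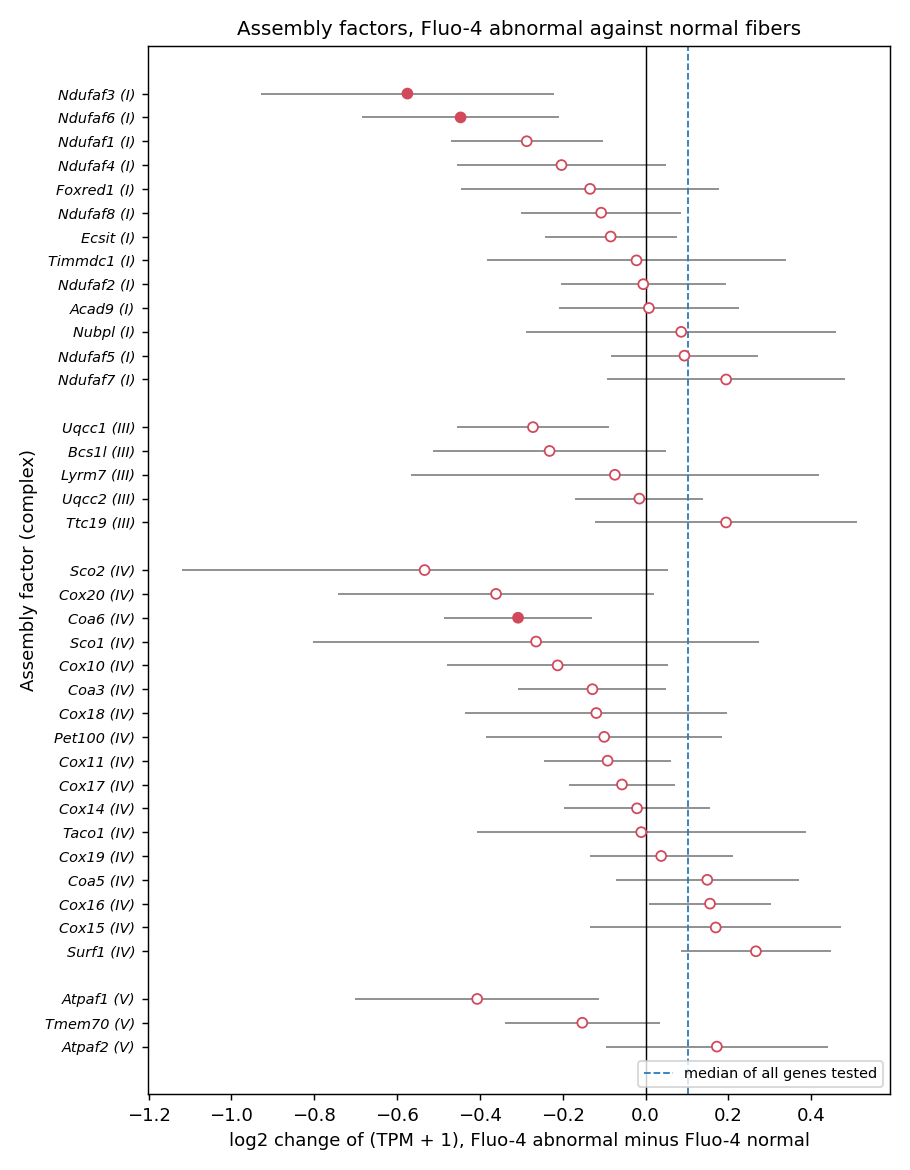
Change of each of the 38 assembly factors between Fluo-4 abnormal and Fluo-4 normal fibers on the log2(TPM + 1) scale (x axis), grouped by complex (y axis), with 95% confidence intervals from limma before adjustment. Filled points mark the 3 called factors, *Ndufaf3*, *Ndufaf6* and *Coa6*, and the dashed line is the median of all genes tested, 0.10.

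The promoters of the called factors were read for binding motifs of regulators of nuclear mitochondrial genes. RefSeq promoter windows (GRCm38.p6, 250 bases before to 50 after a start) were matched for 32 of the 38 factors, and *Ndufaf6*, *Acad9*, *Cox17*, *Coa6*, *Cox18* and *Tmem70* had no entry. Exact matches on either strand were counted to GCGCATGCG (NRF1), CCGGAAGT (GABPA), TCAAGGTCA (ERR) and AAGATGGC (YY1). At least 1 of these was in the windows of 13 factors (40.6%), of 23 of 63 nuclear subunits (36.5%) and of 2537 of all 27025 genes with a window (9.4%). For the factors, the GABPA motif was in 6 windows (18.8%, against 4.3% of all genes), the YY1 motif in 5 (15.6%, against 3.2%), the NRF1 motif in 3 (9.4%, against 2.0%) and the ERR motif in 0 (0.5% of all genes). A match is a run of letters and no evidence of binding.

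The windows of *Ndufaf3*, *Coa3* and *Surf1*, which were called in at least 1 comparison given here, held none of the 4 motifs. They are shown beside those of *Ndufaf4* and *Bcs1l*, which hold an NRF1 and a GABPA motif. Both lay lower in all Fluo-4 abnormal than in all Young samples, as did *Cox11*, *Coa6* and *Coa3*. This held for 5 of 38 factors and 3.95% of all genes. The window of *Cox11* held none of the motifs either, and *Coa6* had no window. *Ndufaf4* and *Bcs1l* were chosen after their values were seen, so the lines show no link between motif and change. Each line is the 150 bases before the start site, 5′ to 3′ on the strand of the gene, with motifs in capitals. In *Ndufaf4* the NRF1 motif is matched on both strands from bases -113 and -112, as overlapping readings of 1 site, and in *Bcs1l* the GABPA motif starts at base -47.
Ndufaf3, chr9:108567437-108567586, minus strand: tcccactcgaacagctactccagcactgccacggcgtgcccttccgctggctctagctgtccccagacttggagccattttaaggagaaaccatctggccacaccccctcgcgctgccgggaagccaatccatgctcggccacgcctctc
Coa3, chr11:101278949-101279098, minus strand: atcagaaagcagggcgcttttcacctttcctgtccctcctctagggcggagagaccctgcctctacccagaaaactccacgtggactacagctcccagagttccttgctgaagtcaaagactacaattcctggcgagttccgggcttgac
Surf1, chr2:26916531-26916680, minus strand: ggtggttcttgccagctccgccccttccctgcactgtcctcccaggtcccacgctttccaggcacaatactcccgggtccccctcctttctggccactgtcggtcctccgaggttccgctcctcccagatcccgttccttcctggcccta
Ndufaf4, chr4:24897933-24898082, plus strand: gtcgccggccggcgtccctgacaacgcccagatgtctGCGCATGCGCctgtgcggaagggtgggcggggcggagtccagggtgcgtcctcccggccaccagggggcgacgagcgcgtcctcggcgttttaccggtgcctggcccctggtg
Bcs1l, chr1:74588139-74588288, plus strand: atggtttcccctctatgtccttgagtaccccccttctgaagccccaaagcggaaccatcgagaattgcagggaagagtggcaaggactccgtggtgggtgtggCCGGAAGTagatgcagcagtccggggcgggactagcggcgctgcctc

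Among the factors of complex I, the early steps on the matrix arm held both called genes. *Ndufaf3* acts with *Ndufaf4* on the Q-module, the part of complex I that hands electrons to ubiquinone. *Ndufaf3* (ENSMUSG00000070283.6, chr9:108442729-108444642 in GRCm39, minus strand, protein-coding) was measured at 25.97, 17.8, 12.4 and 17.3 TPM in Fluo-4 abnormal samples 1 to 4, at 27.9, 27.6, 24.6 and 27.8 TPM in Fluo-4 normal samples and at 31.0, 30.9, 26.2 and 24.7 TPM in Young samples. The abnormal samples overlapped both other groups through replicate 1, and the other 3 lay below all 8 remaining values. The change from Fluo-4 normal fibers was -0.57 (SE 0.16, limma adjusted p = 0.044). The call was lost when any 1 sample other than Fluo-4 abnormal replicate 1 was left out, with limma adjusted p-values of up to 0.11, and in 5 of 11 other alternatives, and without that replicate the change was -0.75 (limma adjusted p = 0.0059). With the *Myh4* share in the model the change was -0.61 (limma adjusted p = 0.14), and with the block as well it was -0.31 (limma adjusted p = 0.52).

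*Ndufaf6*, a factor of an early step that joins the Q-module to the membrane arm, had the highest mean of the complex I factors over all 12 samples, 80.5 TPM against 79.9 TPM for *Ecsit*, which was the higher of both in the Young and Fluo-4 abnormal groups. *Ndufaf6* (ENSMUSG00000050323.16, chr4:11048820-11076236 in GRCm39, minus strand, protein-coding) stood at 80.8, 60.5, 57.0 and 68.0 TPM in Fluo-4 abnormal samples, at 99.4, 86.3, 78.6 and 98.4 TPM in Fluo-4 normal samples and at 87.4, 74.9, 90.4 and 84.4 TPM in Young samples. Fluo-4 abnormal replicate 1 lay within the normal and Young ranges, and the other 3 abnormal samples lay below both. The change from Fluo-4 normal fibers was -0.45 (SE 0.11, limma adjusted p = 0.024), and -0.57 with the *Myh4* share in the model (limma adjusted p = 0.051). Leaving out Fluo-4 normal replicate 1, 2 or 4, or Fluo-4 abnormal replicate 2, 3 or 4, ended the call, with limma adjusted p-values from 0.051 to 0.084, as did 3 of 11 other alternatives.

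The partner of *Ndufaf3*, *Ndufaf4*, had a change of -0.20 (SE 0.12, limma adjusted p = 0.30) and did not pass the test. *Ndufaf5*, which hydroxylates an arginine of the Q-module subunit Ndufs7, and *Ndufaf8*, the small protein that stabilises it, had changes of 0.09 and -0.11. *Ndufaf7*, a protein methyltransferase, stood at 0.19 (limma adjusted p = 0.39), so members of the same module lay on both sides of 0.

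The MCIA complex builds the membrane arm around the mitochondrially-encoded subunit ND2. Of its members here, *Ndufaf1* had 45.0 ± 5.72 TPM in Fluo-4 abnormal and 54.8 ± 2.61 TPM in Fluo-4 normal fibers (SD, n = 4), a change of -0.29 that missed the threshold (limma adjusted p = 0.052) and passed it with the replicate block (limma adjusted p = 0.017). The *Ndufaf1* change was -0.27 with the *Myh4* share in the model (limma adjusted p = 0.20). *Acad9*, an acyl-CoA dehydrogenase relative, had a change of 0.01, and *Ecsit*, which also acts in immune signalling, of -0.08. Neither passed the test (limma adjusted p = 0.98 and 0.51).

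The remaining complex I factors act on the membrane arm, late steps or iron-sulfur clusters. *Timmdc1*, a membrane-arm factor, *Ndufaf2*, a late chaperone, *Foxred1*, an oxidoreductase of late assembly, and *Nubpl*, which delivers iron-sulfur clusters, had changes between -0.13 and 0.09. Their limma adjusted p-values ranged from 0.59 to 0.99. Except for *Ndufaf2*, at 21.9 TPM on average over the 12 samples, they were low, from 3.35 TPM for *Nubpl* to 9.49 TPM for *Foxred1*.

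None of the 5 complex III factors was called, and their median change was -0.07, with -0.22 without Fluo-4 abnormal replicate 2 and -0.02 without Fluo-4 normal replicate 3. *Uqcc2*, which works with *Uqcc1* in the synthesis and stability of cytochrome b, was the most abundant of all 38 factors. *Uqcc2* had 807, 695, 719 and 766 TPM in Fluo-4 abnormal samples, 830, 721, 745 and 723 TPM in Fluo-4 normal samples and 781, 718, 725 and 813 TPM in Young samples. The 3 groups overlapped almost completely, and the change between abnormal and normal fibers was -0.02 (95% confidence interval -0.17 to 0.14, limma adjusted p = 0.93). *Uqcc1* stood at 90.5 ± 9.82 TPM against 109 ± 9.28 TPM (SD, n = 4), a change of -0.27 that missed the threshold (limma adjusted p = 0.063). The *Uqcc1* change passed it with the replicate block (limma adjusted p = 0.0090) and was -0.22 with the *Myh4* share in the model (limma adjusted p = 0.30).

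The other complex III factors handle the Rieske iron-sulfur protein. *Bcs1l*, the ATPase that moves it across the membrane, had a change of -0.23 (limma adjusted p = 0.29), *Lyrm7*, its matrix chaperone, of -0.07, and *Ttc19*, which clears its fragments, of 0.19. *Ttc19* overlaps *Ncor1* on the other strand, with up to 56.0 TPM, and the unstranded libraries do not separate reads of overlapping genes.

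The complex IV factors had a median change of -0.09 (-0.03 without Fluo-4 normal replicate 1), and 1 of 17 was called. Copper reaches cytochrome c oxidase from *Cox17*, which hands it to *Sco1*, *Sco2* and *Cox11*. *Cox17*, the most abundant complex IV factor, stood at 472, 481, 477 and 514 TPM in Fluo-4 abnormal samples, at 538, 508, 498 and 480 TPM in Fluo-4 normal samples and at 553, 516, 500 and 551 TPM in Young samples. The groups overlapped, and the change from normal fibers was -0.06 (95% confidence interval -0.19 to 0.07, limma adjusted p = 0.58).

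*Coa6* is a small protein of the intermembrane space that assists the copper route to COX2. *Coa6* (ENSMUSG00000051671.9, chr8:127149185-127157122 in GRCm39, plus strand, protein-coding) had 41.7, 38.05, 43.8 and 42.1 TPM in Fluo-4 abnormal samples, 59.0, 51.5, 50.7 and 45.4 TPM in Fluo-4 normal samples and 54.7, 51.6, 50.7 and 57.0 TPM in Young samples. All 4 abnormal samples lay below all 8 others. Of the 38 factors, *Coa6* was the 1 whose abnormal samples were all below the normal ones, which held for 2.54% of all genes. The change from Fluo-4 normal fibers was -0.31 (SE 0.083, limma adjusted p = 0.034), and -0.37 with the *Myh4* share in the model (limma adjusted p = 0.077). The call was lost without Fluo-4 normal replicate 1, 2 or 3 and without Fluo-4 abnormal replicate 1, 2 or 4, with limma adjusted p-values of up to 0.097, and in 5 of 11 other alternatives. *Tarbp1*, which overlaps *Coa6* on the other strand, did not exceed 2.53 TPM.

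The paralogs *Sco1* and *Sco2*, both copper chaperones of COX2, were among the lowest factors. *Sco2* had 4.36 ± 2.04 TPM in Fluo-4 abnormal and 6.51 ± 2.10 TPM in Fluo-4 normal fibers (SD, n = 4), a change of -0.53 with an SE of 0.27 (limma adjusted p = 0.24), which was called with the replicate block (limma adjusted p = 0.047). The *Sco2* change was -0.28 without Fluo-4 abnormal replicate 2 and -1.05 with the *Myh4* share in the model (limma adjusted p = 0.085). *Sco1* was the lowest of the 38, at 1.70 ± 0.921 and 2.10 ± 0.325 TPM (SD, n = 4), with a change of -0.26 (limma adjusted p = 0.54). *Cox11*, which inserts copper into COX1, and *Cox19*, its partner protein, had changes of -0.09 and 0.04. A *Sco2* transcript is identical to one of *Tymp* (at most 1.41 TPM) and *Cox11* shares part of its own with *Tom1l1* (at most 11.2 TPM), so the split of reads between these genes is uncertain.

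Heme A is made from heme by *Cox10* and then *Cox15*. Their changes were -0.21 and 0.17, with limma adjusted p-values of 0.31 and 0.48. Among the factors that mature COX2, the chaperone *Cox20* had a change of -0.36 with an SE of 0.18 (limma adjusted p = 0.22) and was called with the replicate block (limma adjusted p = 0.035). Without Fluo-4 abnormal replicate 3 the *Cox20* change was -0.18, without Fluo-4 normal replicate 1 it was -0.23, and with the *Myh4* share in the model it was -0.65 (limma adjusted p = 0.11). *Cox18*, which exports the COX2 tail, and *Cox16*, which acts at its copper site, had changes of -0.12 and 0.16. *Cox16* shares most of its transcript with a readthrough gene, so its level is uncertain.

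The COX1 branch starts with *Taco1*, which activates translation of the mitochondrial COX1 message, and continues with *Cox14*, *Coa3* and *Surf1*. *Taco1* and *Cox14* had changes of -0.01 and -0.02. *Surf1*, known for its loss in Leigh syndrome, stood at 33.0, 36.2, 37.5 and 41.2 TPM in Fluo-4 abnormal samples, at 30.8, 30.5, 27.97 and 32.9 TPM in Fluo-4 normal samples and at 29.3, 31.2, 30.8 and 27.3 TPM in Young samples. All 4 abnormal samples lay above all 8 others. No other factor had all abnormal samples above the normal ones, which held for 11.5% of all genes. The change from Fluo-4 normal fibers was 0.27 (SE 0.084) and missed the threshold (limma adjusted p = 0.063), whereas it passed with the replicate block (limma adjusted p = 0.034). After rescaling by TMM-type factors it was 0.05 (limma adjusted p = 0.86), and with the *Myh4* share in the model it was 0.19 (limma adjusted p = 0.36).

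*Surf1* (ENSMUSG00000015790.18, chr2:26803389-26807966 in GRCm39, minus strand, protein-coding) overlaps *Surf4* on the same strand and *Surf2* on the other. *Surf4*, a cargo receptor of the endoplasmic reticulum, had 94.7 ± 14.8 TPM in Fluo-4 abnormal samples, 63.5 ± 6.68 TPM in Fluo-4 normal samples and 65.1 ± 4.19 TPM in Young samples (SD, n = 4). *Surf2* had 15.4 ± 1.43, 14.3 ± 1.41 and 14.98 ± 1.504 TPM. The part that reads of *Surf4* may have in the *Surf1* values was not tested.

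*Coa3* forms the early COX1 intermediate together with *Cox14*. *Coa3* (ENSMUSG00000017188.5, chr11:101163388-101169940 in GRCm39, minus strand, protein-coding) had 106, 100, 101 and 101 TPM in Fluo-4 abnormal samples, 134, 106, 102 and 107 TPM in Fluo-4 normal samples and 141, 141, 129 and 124 TPM in Young samples. The abnormal values were narrow and below the whole Young range, but they overlapped the normal ones. The change between abnormal and normal fibers was -0.13 (limma adjusted p = 0.36). It was -0.04 without Fluo-4 normal replicate 1, -0.32 with the *Myh4* share in the model (limma adjusted p = 0.066) and -0.30 with that share and the block (limma adjusted p = 0.22). The last complex IV factors, *Pet100*, which joins later subunits, and *Coa5*, a factor of an early step, had changes of -0.10 and 0.15 without passing the test.

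Of the ATP synthase factors, *Atpaf1* and *Atpaf2* are chaperones of the F1 beta and alpha subunits, and *Tmem70* assembles the membrane ring of c subunits. *Tmem70*, the most abundant of them, had 96.7, 79.2, 73.3 and 78.8 TPM in Fluo-4 abnormal samples, 102, 91.2, 82.3 and 89.2 TPM in Fluo-4 normal samples and 76.6, 73.4, 76.6 and 72.8 TPM in Young samples. Abnormal and normal samples overlapped, at a change of -0.15 (limma adjusted p = 0.29). *Atpaf1* stood at 32.7 ± 6.87 TPM in Fluo-4 abnormal and 43.2 ± 5.52 TPM in Fluo-4 normal fibers (SD, n = 4), a change of -0.41 that missed the threshold (limma adjusted p = 0.079) and passed it with the replicate block (limma adjusted p = 0.012). Without Fluo-4 abnormal replicate 3 it was -0.26 (limma adjusted p = 0.16), and with the *Myh4* share in the model it was -0.28 (limma adjusted p = 0.40). The pseudogene *Gm14117* holds an identical copy of 648 of the 1251 bp of the *Atpaf1* transcript and was listed at 28.7 ± 4.71 and 37.4 ± 6.73 TPM in those groups, so the *Atpaf1* level is uncertain. *Atpaf2* had a change of 0.17 (limma adjusted p = 0.42).

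**Figure D2:**
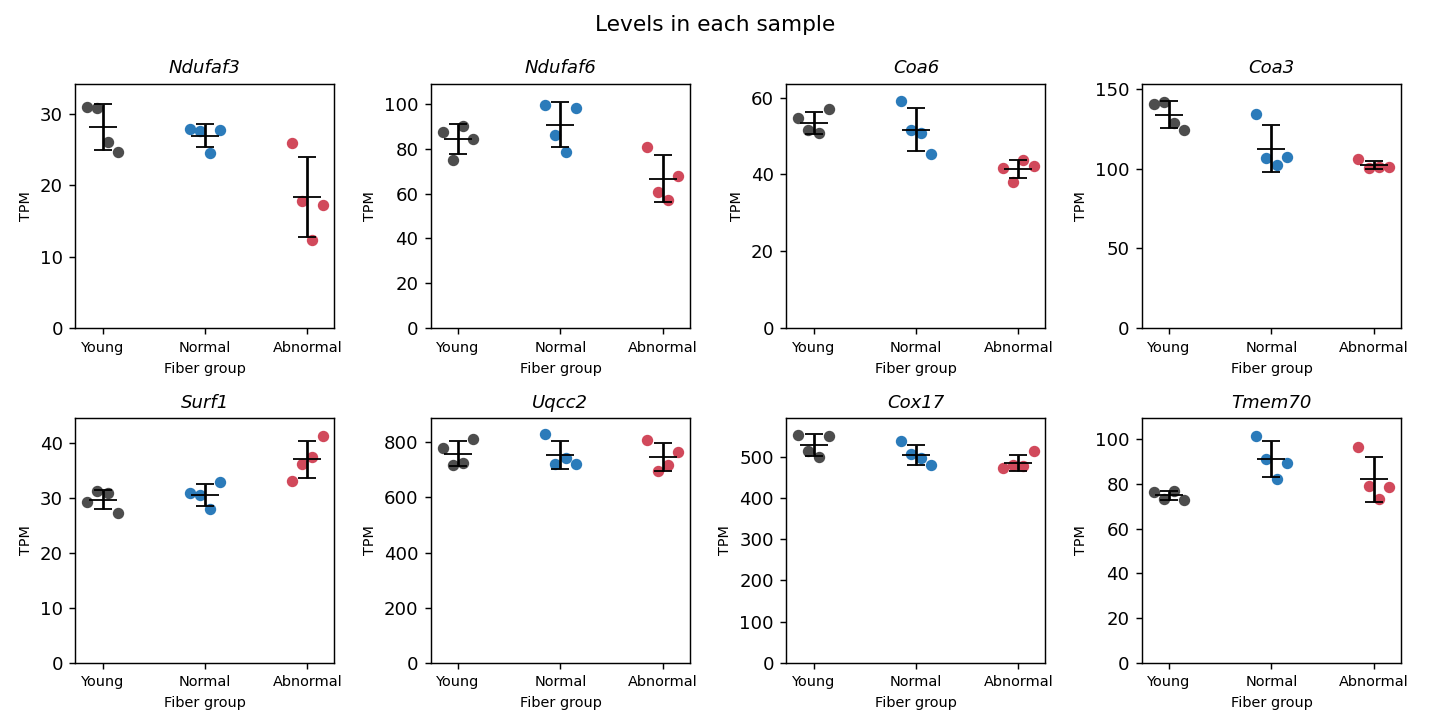
TPM (y axis, from 0) of *Ndufaf3*, *Ndufaf6*, *Coa6*, *Coa3*, *Surf1*, *Uqcc2*, *Cox17* and *Tmem70* in each sample of the Young, Fluo-4 normal and Fluo-4 abnormal groups (x axis), with the mean and SD of each group (n = 4). All 4 Fluo-4 abnormal samples lie below the others for *Coa6* and above them for *Surf1*, whereas *Uqcc2* lies between 695 and 830 TPM in every group.

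The Fluo-4 abnormal fibers were next set against Young fibers, which differ in both age and staining, and possibly in the source of the mice. Here 3 of 38 factors were called lower, namely *Ndufaf3*, *Coa6* and *Coa3*, and *Surf1* was called higher. Of all genes, 2.41% were called lower and 6.09% higher, and the factors had a median change of -0.12 against 0.07 for all genes. This comparison uses the same Fluo-4 abnormal samples as the one above, so the values are given side by side and are not independent of it. All 4 Fluo-4 abnormal samples lay below all 4 Young samples for 5 factors, *Ndufaf4*, *Bcs1l*, *Cox11*, *Coa6* and *Coa3*, and above them for 1, *Surf1*, which held for 3.95% and 12.2% of all genes. *Coa3* had the smallest p of the 38, with a change of -0.38 (SE 0.083, limma adjusted p = 0.013), and stayed called when any 1 sample was left out and in each of the 11 other alternatives. *Coa6* changed by -0.36 (SE 0.083, limma adjusted p = 0.017) and lost its call without Young replicate 1 or 4 or Fluo-4 abnormal replicate 2, with limma adjusted p-values of up to 0.062, and when the model held the block together with the *Myh4* share (limma adjusted p = 0.056).

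*Ndufaf3* changed by -0.63 (SE 0.16, limma adjusted p = 0.031) from Young fibers. Its call was lost in 9 of 12 fits that left out 1 sample (without any Young replicate, Fluo-4 normal replicate 2 or 4, or Fluo-4 abnormal replicate 2, 3 or 4), with limma adjusted p-values of up to 0.094, and in 4 of 11 other alternatives. *Surf1* changed by 0.31 (SE 0.084, limma adjusted p = 0.038). The *Surf1* call was lost without any 1 Young replicate and without Fluo-4 abnormal replicate 2, 3 or 4, and in 5 of 11 other alternatives, and after rescaling by TMM-type factors the change was 0.14 (limma adjusted p = 0.49). The Q-module partner *Ndufaf4* stood at 23.6 ± 2.95 TPM in Fluo-4 abnormal and 30.7 ± 1.85 TPM in Young samples (SD, n = 4), at a change of -0.37 that missed the threshold (limma adjusted p = 0.069). *Bcs1l*, the Rieske ATPase, had 13.1, 15.2, 11.1 and 12.1 TPM in Fluo-4 abnormal and 18.0, 15.6, 17.4 and 17.6 TPM in Young samples, at a change of -0.40 (limma adjusted p = 0.079).

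Fluo-4 normal fibers of aged mice were compared with Young fibers to ask what differed with age in fibers without abnormal staining. The source of the mice may differ as well. Of the 38 factors, 0 were called lower and 0 higher by limma. At an unadjusted p under 0.05 there were 3, against 1865 of all 14428 genes. Of all genes, 0.589% were called lower and 0.561% higher, and the medians of the factors and of all genes were -0.03 and -0.02. *Coa6*, *Ndufaf3* and *Ndufaf6* had changes of -0.05, -0.06 and 0.10, and *Surf1* of 0.04, with limma adjusted p-values from 0.76 to 0.93. *Coa3* had a change of -0.26 (SE 0.083, limma adjusted p = 0.17), and it was called at -0.34 when Fluo-4 normal replicate 1 was left out (limma adjusted p = 0.020). All 4 Fluo-4 normal samples lay below all 4 Young samples for 1 factor, *Cox16*, and above them for 1, *Tmem70*, which held for 4.96% and 3.03% of all genes. *Cox16* had 169, 174, 189 and 161 TPM in Fluo-4 normal and 203, 201, 191 and 207 TPM in Young samples, at a change of -0.21 that missed the threshold (limma adjusted p = 0.16). *Tmem70* had a change of 0.28 and missed the threshold as well (limma adjusted p = 0.15).

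The factors were then read beside the subunits they assemble, in the comparison of Fluo-4 abnormal with normal fibers. Of 75 nuclear-encoded subunits of complexes I, III, IV and V, 57 were called lower and 0 higher, with a median change of -0.39. All 13 mitochondrially-encoded subunits were called lower, with a median of -0.72. In complex I, 23 of 37 nuclear subunits were called, with a median of -0.35 against -0.08 for the 13 factors. In complex III, 8 of 9 were called, with a median of -0.39 against -0.07 for its 5 factors. In complex IV, 12 of 14 were called, with a median of -0.44 against -0.09 for its 17 factors. In complex V, 14 of 15 were called, with a median of -0.44 against -0.15 for its 3 factors. Between Fluo-4 abnormal and Young fibers, 33 of 75 nuclear subunits were called lower, with a median of -0.31 against -0.12 for the factors. Between Fluo-4 normal and Young fibers 0 of 75 were called by limma, with 4 at an unadjusted p under 0.05, against 1865 of all 14428 genes. The median of the subunits was 0.08 there, against -0.03 for the factors.

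In the comparison of Fluo-4 abnormal with normal fibers, the gap between both medians kept its sign in every setting tried. Over all complexes, the factors lay 0.30 above the nuclear subunits on the deposited scale and 0.31 above them after rescaling by TMM-type factors. They lay between 0.17 and 0.38 above them in all 24 settings tried. The block alone, other gene filters, a separate fit of each pair of groups and leaving out a Young sample cannot move the change of a gene. Such settings therefore add nothing to this range. The number of nuclear subunits called moved more, from 66 of 75 with the replicate block to 25 with only the groups compared, 21 with the *Myh4* share in the model and 1 with both, a fit in which 22 genes in all were called. No test of the difference between the lists was made, and the factors are on average far less abundant than the subunits.

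**Figure D3:**
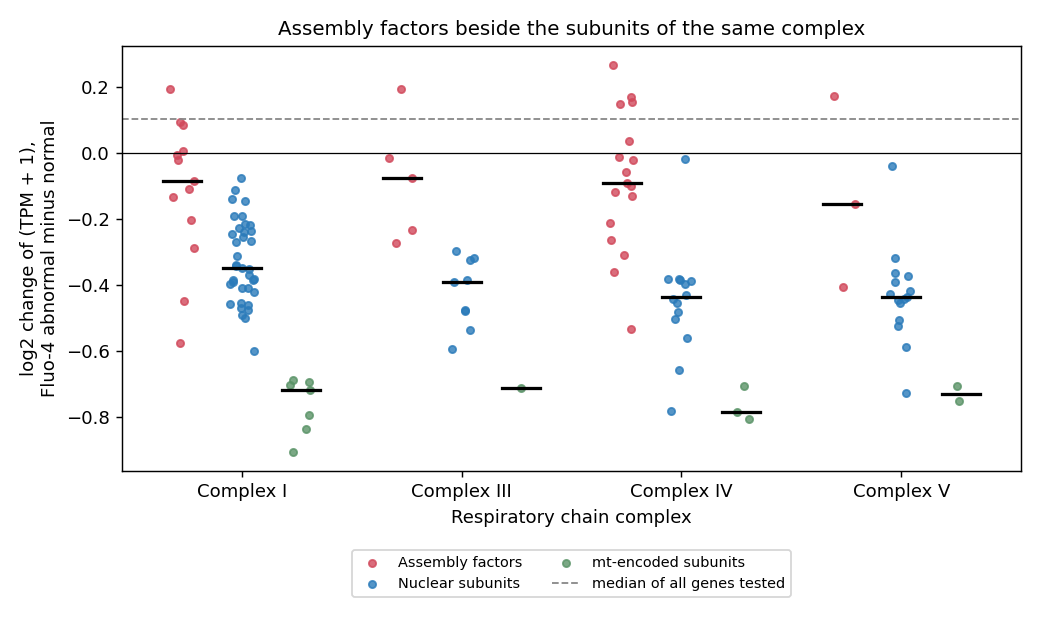
Change between Fluo-4 abnormal and Fluo-4 normal fibers on the log2(TPM + 1) scale (y axis) for assembly factors, nuclear subunits and mitochondrially-encoded subunits of each complex (x axis). Each point is 1 gene, black bars are medians, and the dashed line is the median of all genes tested, 0.10. The medians of the factors lie between -0.15 and -0.07 and those of the nuclear subunits between -0.44 and -0.35.

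The 38 factors summed to 2650 ± 110 TPM in Fluo-4 abnormal, 2787 ± 143 TPM in Fluo-4 normal and 2839 ± 60.9 TPM in Young samples (SD, n = 4), and the sums of abnormal and normal samples overlapped. The nuclear subunits summed to 73757 ± 5803, 98327 ± 7058 and 92481 ± 6565 TPM. *Uqcc2* and *Cox17* made up much of the sum of the factors, and neither was called in any comparison.

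Per 100 TPM of nuclear subunits, the assembly factors amounted to 3.40, 3.59, 3.73 and 3.68 TPM in Fluo-4 abnormal samples, 2.78, 2.78, 2.89 and 2.90 TPM in Fluo-4 normal samples and 3.00, 3.23, 3.19 and 2.90 TPM in Young samples. This ratio is the same under any scaling of a library. The abnormal samples lay above all others, while Fluo-4 normal and Young samples overlapped at 2.90. By complex, the means for Fluo-4 abnormal and normal samples were 1.73 ± 0.0765 and 1.55 ± 0.0917 for complex I, 9.83 ± 0.411 and 7.68 ± 0.328 for complex III, 5.41 ± 0.321 and 4.03 ± 0.119 for complex IV, and 0.730 ± 0.0147 and 0.601 ± 0.0148 for complex V (SD, n = 4). In each of the 4 complexes, every Fluo-4 abnormal sample lay above every Fluo-4 normal one. For complex I, the abnormal samples did overlap the Young ones, at 1.64 to 1.82 against 1.49 to 1.72.

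**Figure D4:**
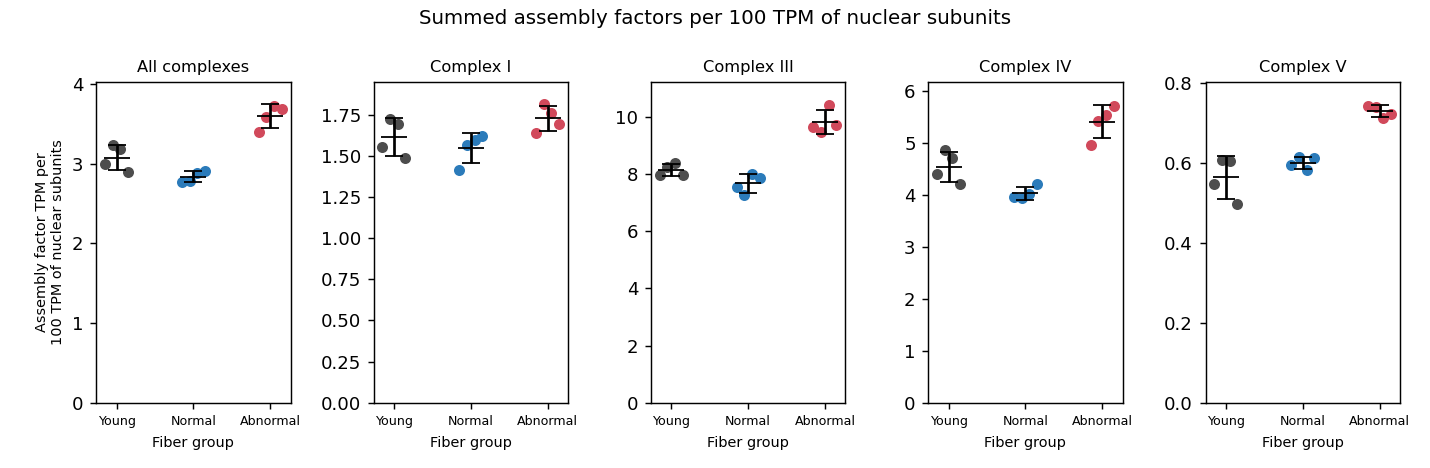
Summed TPM of the assembly factors per 100 TPM of nuclear subunits (y axes, from 0) in each sample of the 3 fiber groups (x axes), for all complexes and for each one, with mean and SD (n = 4). Over all complexes the Fluo-4 abnormal samples lie between 3.40 and 3.73 and the Fluo-4 normal samples between 2.78 and 2.90.

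A list of 24 further assembly factors, which includes those of complex II and the insertase *Oxa1l*, was read the same way. Of these, 19 were tested, and between Fluo-4 abnormal and normal fibers 0 were called in either direction by limma. At an unadjusted p under 0.05 there were 2, against 3693 of all 14428 genes. The median change of the 19 was -0.10. The lowest was *Sdhaf4*, a factor of complex II, at -0.35 (limma adjusted p = 0.055). Between Fluo-4 abnormal and Young fibers 2 of the 19 were called lower, against 2.41% of all genes. They were *Smim20*, another factor of the early COX1 intermediate, at -0.29 (limma adjusted p = 0.0094), and *Tmem242*, a factor of ATP synthase, at -0.35 (limma adjusted p = 0.019).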

How the data were processed

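RNA from isolated EDL myofibers was made into libraries from 10 ng per sample with SMART-Seq v4, which keeps no strand. Reads were mapped by the authors with DRAGEN 4.3 (GRCm39) and, for each sample, the authors deposited gene-level TPM. Each file listed 55487 entries with 55367 symbols, of which 114 stood on several lines and were summed. TPM keep no read counts, so depth is unknown and counting intervals could not be given. The annotation release is not given in the sources used here. Symbols were matched to GENCODE vM39 and RefSeq names, with 49848 by current name and 123 by synonym.

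Protein-coding and mitochondrially-encoded genes with a mean of at least 0.02 TPM in 1 group, the limit of the study's methods, were kept. log2(TPM + 1) values of the 3 groups were fitted together under R 4.3.3 (limma 3.58.1, trended variance), and p-values were adjusted over 14428 genes. This test was used in place of the study's t-test because each group held 4 samples. Alternatives were TMM-type factors, scaling without mitochondrially-encoded genes, a pseudocount of 0.1, no filter, a filter of 5 TPM, non-coding genes included, the replicate number as a block, a separate fit of each pair of groups, quality weights per sample, the *Myh4* share in the model, that share with the block, and leaving out each sample. The *Myh4* share is of *Myh1*, *Myh2*, *Myh4* and *Myh7*, and the 2-group values were compared by exact permutation. Labels number the replicates 1 to 4 in both aged groups. Deviations from group means over 4468 genes correlated at 0.51, 0.42, 0.46 and 0.33 for the same number and at -0.43 to 0.28 for different numbers, so the numbers were taken to pair the aged samples, and Young samples were left out of the block. Neither the labels nor the methods say what a number marks. The fit was run on simulated data with independent noise in each sample. Such data lack the shared deviations of the same-numbered aged samples.

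All 38 factors are named for the comparison of Fluo-4 abnormal with normal fibers, and those called in any comparison for the others. *Tmem70*, *Cox16*, *Ndufaf4*, *Bcs1l* and *Cox11* were added in the comparisons with Young, and *Smim20* and *Tmem242* among further factors, after their values were seen. The factors and lists were chosen with earlier results of these data known. *Uqcc4*, *Uqcc5*, *Uqcc6* and *Coa1* of the further factors were not matched, and *Pet117* was not tested. Near-identical transcripts were searched with BLAST 2.17.0, and 20 factors overlap a protein-coding gene by at least 100 bp, which these libraries do not separate. Figures were drawn with matplotlib 3.10.9, and tables made with pandas 2.3.3 and numpy 2.4.6 under Python 3.11.15.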

Additional observations from a re-analysis of the deposited data

Results flagged for a closer look

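In 10 of 114 sets of 4 samples (38 factors in 3 groups), 1 sample stood apart from the other 3 by a gap past Dixon's limit. Chance flags about 1 in 20 such sets.

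Of the called factors, *Ndufaf3* was low in Fluo-4 normal replicate 3, at 24.6 TPM against 27.6 to 27.9 in the others, and *Coa3* was high in Fluo-4 abnormal replicate 1, at 106 TPM against 100 to 101. Without Fluo-4 normal replicate 3 the change of *Ndufaf3* between Fluo-4 abnormal and normal fibers was -0.62 (limma adjusted p = 0.057).

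In Fluo-4 normal samples, *Ndufaf2* was low in replicate 4 (19.2 TPM), *Acad9* in replicate 1 (19.2 TPM) and *Cox15* in replicate 1 (5.93 TPM), and *Coa5* was high in replicate 2 (41.3 TPM). In Fluo-4 abnormal samples, *Ecsit* was high in replicate 2 (85.9 TPM) and *Atpaf2* low in replicate 1 (17.4 TPM). In Young samples, *Foxred1* was low in replicate 4 (7.25 TPM) and *Lyrm7* in replicate 2 (3.38 TPM). None of these factors was called in any comparison with all samples on the deposited scale and no block or *Myh4* share in the model. With the block and that share, *Ecsit* was called lower in Fluo-4 abnormal than in Young fibers, at -0.26 (limma adjusted p = 0.039). Without Fluo-4 abnormal replicate 2, *Ecsit* was called lower in Fluo-4 abnormal than in Young fibers, at -0.25 (limma adjusted p = 0.039), and with TMM-type factors it was called lower than in Fluo-4 normal fibers, at -0.31 (limma adjusted p = 0.044), and than in Young fibers, at -0.36 (limma adjusted p = 0.017).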

How the results depend on the processing

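Between Fluo-4 abnormal and normal fibers, the 3 lower calls became 8 with TMM-type factors, 5 with scaling without mitochondrially-encoded genes, 6 with a filter of 5 TPM (which left 36 factors), 8 with the replicate block, 1 over all annotated genes, and 0 with only the groups compared, with the *Myh4* share in the model, and with the block and that share together. They numbered 0 to 3 with each sample left out, with 0 without Fluo-4 normal replicate 1 or 2 or Fluo-4 abnormal replicate 4, and 1 without Fluo-4 normal replicate 4 or Fluo-4 abnormal replicate 2 or 3. Of all 14428 genes, 542 were called lower with TMM-type factors, 322 without mitochondrially-encoded genes and 407 with the block. The 5 TPM filter gave 291 of 6348 genes, and all annotated genes 274 of 22367. Only the groups compared gave 145, the *Myh4* share 108, and the block with that share 8. The higher calls of factors, 0, became 1 with the 5 TPM filter, with the block and without Fluo-4 abnormal replicate 1 (0 to 1 with each sample left out). In this order, these fits called 1419, 1874 and 1123 of all genes higher. The median of the factors, -0.09, was -0.31 with TMM-type factors, -0.15 without mitochondrially-encoded genes and -0.10 to -0.06 with each sample left out.

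Against Young fibers, the 3 lower calls of Fluo-4 abnormal fibers became 10 with TMM-type factors, 6 with the 5 TPM filter and 6 with the block. They became 5 with only the groups compared and 1 to 4 with each sample left out (1 without Young replicate 1 or 4). Of all 14428 genes, 693 were called lower with TMM-type factors, 528 with the block and 339 with only the groups compared. The 5 TPM filter gave 379 of 6348 genes. The 1 higher call, *Surf1*, became 0 with TMM-type factors, with scaling without mitochondrially-encoded genes, over all annotated genes and in both fits with the *Myh4* share, and 0 to 1 with each sample left out. The median, -0.12, was -0.29 with TMM-type factors and -0.15 to -0.07 with each sample left out, -0.07 without Fluo-4 abnormal replicate 3. The block covers the aged samples only and takes the spread between their numbers out of the error, which a comparison with the unpaired Young samples needs, so no call with Young rests on it. For Fluo-4 normal fibers, the block gave 1 higher call, and quality weights and leaving out Fluo-4 normal replicate 1 gave 1 lower call (0 to 1). Of all genes, the block called 214 higher, quality weights 180 lower and leaving out that replicate 70 lower. The block changed no other count of called factors by over 1.5 times.

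Changes of factors that were not called crossed 0 between Fluo-4 abnormal and normal fibers. With TMM-type factors these were *Ndufaf5* -0.13, *Ndufaf7* -0.022, *Acad9* -0.21, *Nubpl* -0.093, *Ttc19* -0.023, *Cox15* -0.031, *Cox19* -0.18, *Cox16* -0.070, *Coa5* -0.072, *Atpaf2* -0.043. With scaling without mitochondrially-encoded genes they were *Acad9* -0.050, *Cox19* -0.021. With quality weights they were *Ndufaf2* 0.031, *Acad9* -0.021, *Uqcc2* 0.0075, *Cox19* -0.0035, *Cox14* 0.027. With the *Myh4* share they were *Ndufaf2* 0.038, *Nubpl* -0.093, *Lyrm7* 0.054, and with the block as well *Ndufaf2* 0.050, *Nubpl* -0.11, *Uqcc2* 0.067, *Taco1* 0.16. With each sample left out in turn, the changes ranged over *Ndufaf2* -0.068 to 0.054, *Acad9* -0.062 to 0.051, *Timmdc1* -0.11 to 0.054, *Lyrm7* -0.22 to 0.11, *Uqcc2* -0.053 to 0.032, *Cox14* -0.074 to 0.050, *Taco1* -0.13 to 0.12, *Pet100* -0.21 to 0.022. The other 21 factors, the 3 called ones included, kept their direction in every alternative run. These were 22 for *Sco1*, which the 5 TPM filter leaves out, and 23 for the others. The block alone, other gene filters, a separate fit of each pair of groups and leaving out a Young sample cannot move a change in this comparison. Direction was therefore fixed in those alternatives. The cause of the shifts across 0 was not tested, and the TPM files do not give the reads behind low factors such as *Sco1*.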
